A study of Saccharomyces cerevisiae S288C with 32 samples.

Results

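The 10 genes described here serve the ubiquitin system of Saccharomyces cerevisiae, and were taken by name from the 6085 genes of the deposited table. They are UBI4, which encodes ubiquitin itself, the ubiquitin ligase genes UBR1, UBR2, SAN1, HUL5, RSP5 and TOM1, the ligase regulator gene ROQ1, the deubiquitinase gene DOA4 and its inhibitor gene RFU1. UBI4, ROQ1 and RFU1 were chosen by measured values in part, the large changes of their mRNA in these data, and the choice does not name the comparison it used. Their AZC changes in wild type were the largest among the 10, so their values in any comparison that contains wild-type cells under AZC are given as a description, without a test. In the other comparisons their p-values are given, but the choice may have used those changes too, so they are no independent evidence. The other 7 genes were tested in every comparison.

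AZC, L-azetidine-2-carboxylic acid, is a proline analog that is built into new proteins and leaves them prone to misfold. Poly(A) RNA was sequenced from 32 libraries of the laboratory strain S288C in 8 groups of 4. Flowcell 1 held wild-type (WT) and zuo1 cells with sterile water as the vehicle or with AZC. Flowcell 2 held a further set of WT libraries and not5 cells, again with water or AZC. All cells grew in YPD at room temperature from an OD600 of 0.1 to 0.4, and AZC was given at 2 mg/mL for 45 minutes. ZUO1 encodes a chaperone partner that sits on the ribosome, and NOT5 a scaffold subunit of the Ccr4-Not deadenylase complex. The question in the series title is what misfolding of growing chains does to translation and mRNA decay, while these libraries give mRNA levels.

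Ubiquitin is a small protein that is joined to other proteins by a cascade of activating (E1), conjugating (E2) and ligating (E3) enzymes, and chains of it send a protein to the proteasome. Yeast makes ubiquitin from UBI4, whose product is a string of ubiquitins that is cut apart, and from 3 genes in which a single ubiquitin is fused to a ribosomal protein. Ubr1 is the ligase of the N-degron pathway and also marks misfolded cytosolic proteins, a task towards which the small protein Roq1 redirects it. San1 marks misfolded proteins in the nucleus, Ubr2 marks the proteasome gene activator Rpn4, and Hul5 lengthens ubiquitin chains at the proteasome. Rsp5 marks membrane proteins and, after heat, misfolded cytosolic ones, while Tom1 marks ribosomal proteins made in excess. Doa4 takes ubiquitin back from membrane proteins before they are degraded in the vacuole, and Rfu1 inhibits Doa4.

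The coding sequences of the ubiquitin units are shown because they make clear how reads of UBI4 are told from those of the other ubiquitin genes. In the RefSeq R64 genome the coding sequence of UBI4 held 5 tandem units of 228 bases, and those of RPL40A, RPL40B and RPS31 held 1 each. The first 60 coding bases of each unit follow, with capitals where a base differs from the first unit of UBI4.
UBI4 unit 1: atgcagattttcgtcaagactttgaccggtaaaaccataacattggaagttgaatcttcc
UBI4 unit 2: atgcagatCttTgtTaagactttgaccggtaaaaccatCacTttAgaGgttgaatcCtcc
UBI4 unit 3: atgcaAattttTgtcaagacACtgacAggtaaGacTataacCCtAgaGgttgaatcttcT
UBI4 unit 4: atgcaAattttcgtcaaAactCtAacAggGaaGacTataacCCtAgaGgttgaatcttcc
UBI4 unit 5: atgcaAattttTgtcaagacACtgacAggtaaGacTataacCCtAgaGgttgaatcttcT
RPL40A: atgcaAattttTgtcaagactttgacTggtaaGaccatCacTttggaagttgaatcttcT
RPL40B: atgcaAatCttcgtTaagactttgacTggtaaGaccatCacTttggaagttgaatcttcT
RPS31: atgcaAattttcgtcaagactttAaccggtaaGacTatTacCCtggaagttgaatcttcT
Over their full length the units shared 80.3 to 86.4% of bases with the first unit of UBI4. No stretch of 31 bases in UBI4 occurred in any other protein-coding gene, and the same held for the other 9 genes. Within UBI4, 13.2% of such stretches occurred more than once. The 3 fusion genes shared stretches with each other, 32.8% of those of RPL40A, 33.1% of RPL40B and 8.86% of RPS31, so their separate levels are less certain than their sum.

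Stretches before the start codons of UBI4, ROQ1 and RFU1 are shown because these genes had the largest AZC differences among the 10. Each runs from 300 to 101 bases before the start codon, on the coding strand of the RefSeq R64 genome, at chrXII:65308-65507 (minus strand) for UBI4, chrX:146059-146258 (plus strand) for ROQ1 and chrXII:281722-281921 (minus strand) for RFU1. Capitals mark the matches to 5 short motifs, searched on both strands. These were AGGGG, the element read by the stress activators Msn2 and Msn4, TTCNNGAA or GAANNTTC, a pair of the units read by the heat shock factor Hsf1, GGTGGCAAA, the element read by Rpn4, and GATGAG and AAAATTTT, called PAC and RRPE and common before ribosome assembly genes.
UBI4: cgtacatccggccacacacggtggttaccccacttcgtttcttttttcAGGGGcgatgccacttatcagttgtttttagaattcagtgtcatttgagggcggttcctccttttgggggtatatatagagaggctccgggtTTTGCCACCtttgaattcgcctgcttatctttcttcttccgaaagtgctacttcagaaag
ROQ1: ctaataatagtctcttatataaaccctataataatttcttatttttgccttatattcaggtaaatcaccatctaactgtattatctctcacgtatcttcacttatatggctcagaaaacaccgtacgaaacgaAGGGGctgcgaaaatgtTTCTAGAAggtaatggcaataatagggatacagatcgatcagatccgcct
RFU1: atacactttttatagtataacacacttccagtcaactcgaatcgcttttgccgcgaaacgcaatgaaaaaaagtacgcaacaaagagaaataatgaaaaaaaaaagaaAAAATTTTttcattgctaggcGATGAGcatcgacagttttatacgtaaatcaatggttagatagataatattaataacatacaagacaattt
UBI4 held AGGGG at −252 and the Rpn4 element, on the other strand, at −160, counted from the start codon to the first base of the match. ROQ1 held AGGGG at −167 and the paired Hsf1 units at −150. RFU1 held RRPE at −192 and PAC at −171. AGGGG was found in 3 of the 10 genes, UBI4, ROQ1 and UBR1, and in 16.3% of all 6020 such windows, and each of the other 4 motifs in 1 of the 10. The genome shares were 16.1% for the paired Hsf1 units, 0.98% for the Rpn4 element, 13.7% for PAC and 7.33% for RRPE. A run of 3 Hsf1 units, which holds the pair within it, was in none of the 10 and in 0.731% of windows. None of the other motifs holds another.

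The libraries of flowcell 1 held 22152108 to 31485394 counts each, and those of flowcell 2 held 58229383 to 97010130. The mutated genes matched the labels: ZUO1 had 14757 to 33003 counts in WT of flowcell 1, 0 in zuo1 with water and 0 to 3 in zuo1 with AZC, and NOT5 had 10967 to 17767 in WT of flowcell 2 and 0 in all 8 not5 libraries. LEU2, a leucine synthesis gene, was at 0 counts in every WT and zuo1 library and at 1378 to 2311 in not5, so effects of NOT5 loss and of LEU2 cannot be told apart. Nor can a change in mRNA level be told apart from a change in poly(A) tail length that alters selection. Levels are given as CPM, in which each count is set relative to its library's total after TMM scaling, as mean ± SD over 4 libraries, and differences are log2 ratios ± SE from edgeR's quasi-likelihood fit with Benjamini-Hochberg adjusted p-values, called under 0.05. All 10 genes passed the filter on low counts, among 5783 tested genes on flowcell 1 and 5850 on flowcell 2. Sample titles number the libraries of each group as biological replicates, but do not state whether each was a culture of its own, so p-values measure the spread between libraries.

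UBI4 (YLL039C, chromosome XII, 64062 to 65207, minus strand, R64, 1 coding exon) was the most abundant of the 10 genes per length in every group, and was higher with AZC in WT, less so in zuo1. In WT of flowcell 1 it stood at 73.7, 77.5, 75.8 and 102 CPM with water and at 1475, 1370.2, 1315 and 1251 CPM with AZC. The lowest AZC library was above the highest water library by a wide margin, and the ratio was 16.4-fold (log2 4.04 ± 0.12). On flowcell 2 WT went from 118, 123, 121 and 119.7 CPM to 1027, 897, 1316 and 1138 CPM, a 9.08-fold ratio (3.18 ± 0.16). The zuo1 cells gave 152, 164, 173 and 168 CPM with water and 213, 234, 222 and 272 CPM with AZC. These groups did not overlap, and the rise of 0.52 ± 0.10 on the log2 scale, 1.43-fold, passed the test (edgeR adjusted p = 0.00656).

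Without AZC, UBI4 was already higher in both mutants. In zuo1 with water it was 2.00-fold higher than in WT with water (log2 1.00 ± 0.10, edgeR adjusted p = 5.65e-07). In not5 with water the 4 libraries held 662, 1052, 873 and 828 CPM, 7.08-fold above WT (2.82 ± 0.16, edgeR adjusted p = 1.88e-10) and within reach of WT with AZC on the same flowcell. With AZC not5 held 688, 1133, 915 and 959.7 CPM, which overlapped its water libraries throughout. That AZC difference was 0.11 ± 0.15, with a 95% interval of −0.21 to 0.44 (edgeR adjusted p = 0.999). Under AZC the mean of UBI4 was 5.75-fold lower in zuo1 than in WT, and not5 differed from WT by −0.24 ± 0.15, a value that turned to 0.29 with library totals in place of TMM factors.

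**Figure D1:**
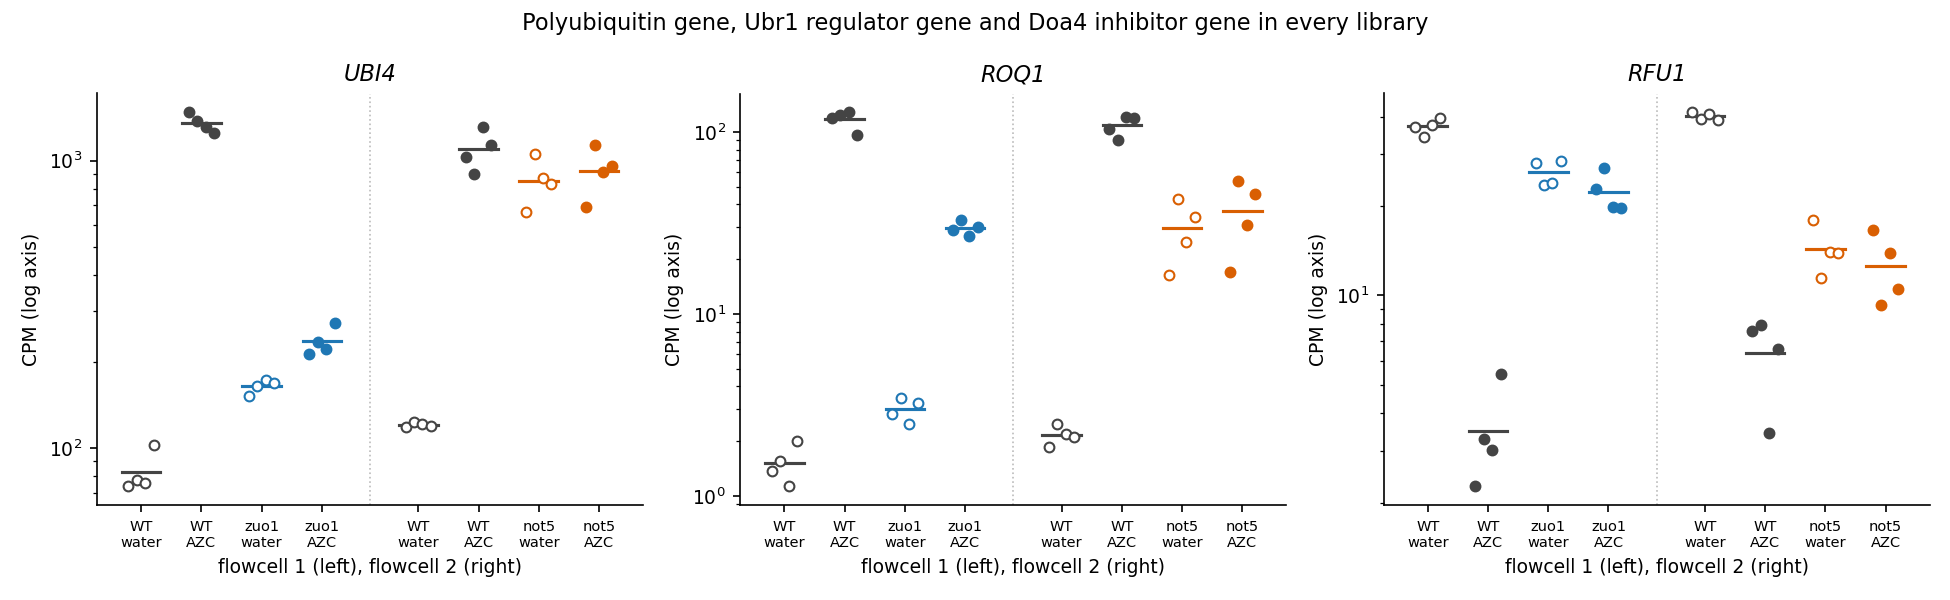
Level of UBI4, ROQ1 and RFU1 mRNA in CPM on a log axis, 1 point per library and 4 libraries per group, with water as open and AZC as filled points and a bar at each group mean. UBI4 and ROQ1 sit highest and RFU1 lowest in WT with AZC, and the water and AZC points of not5 overlap in all 3 panels.

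The ubiquitin units encoded by UBI4 were then set against those of all 4 ubiquitin genes, as counts divided by coding length and multiplied by units per gene, within each library. This share does not depend on the scaling between libraries. Full coding length was used, 1146 bases for UBI4 and 387 to 459 for the fusion genes, without correction for the length of sequenced fragments. The percentages are therefore approximate. In WT with water UBI4 gave 2.16, 2.67, 3.04 and 3.87% of units on flowcell 1, and with AZC 45.9, 35.7, 48.9 and 39.7%. On flowcell 2 the WT mean went from 2.65% ± 0.201 to 27.3% ± 3.92 (SD, n = 4). UBI4 thus supplied a small part of the encoded units in water and a far larger part under AZC in WT of both flowcells. In zuo1 the share was 3.37, 3.74, 5.52 and 3.82% with water and 5.79, 5.11, 8.03 and 7.82% with AZC. In not5 it was 31.4, 50.0, 42.6 and 39.0% with water, and 34.1, 54.4, 43.1 and 44.7% with AZC, so that both not5 groups overlapped the WT AZC range of 23.8 to 32.9% on their flowcell or lay above it.

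Exact two-sided permutation tests over libraries were run on the 4 comparisons without WT AZC libraries, where 4 against 4 allows no p below 0.0286. The share in not5 with water was above that in WT by 38.1 percentage points (exact p = 0.0286, adjusted over the 4 comparisons 0.114). For AZC in zuo1 the difference was 2.58 points (exact p = 0.0571, adjusted 0.114), for zuo1 against WT in water 1.18 points (exact p = 0.114, adjusted 0.152) and for AZC in not5 3.30 points (exact p = 0.6, adjusted 0.6). None passed after adjustment. An adjusted value of 0.114 is the lowest that 1 comparison alone at the smallest p can reach. The test could therefore not call not5 against WT by itself. The not5 libraries with water, at 31.4% or more, all lay above those of WT with water on their flowcell, at 2.86% or less. Library numbers of not5 vary together, and by number the share was higher with AZC in 4 of 4 pairs, where an exact paired permutation test, added after seeing the data, gave its smallest possible p of 0.125. The share rests on both sides of the ratio: the fusion genes fell with AZC in WT of flowcell 1 (RPL40A −0.53 ± 0.21, RPL40B −0.58 ± 0.17 and RPS31 −0.59 ± 0.19) and were lower in not5 than in WT with water (−1.62, −1.64 and −2.02). All 6 of these values passed the edgeR test, as did those of flowcell 2 (−0.67, −0.62 and −0.58).

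**Figure D2:**
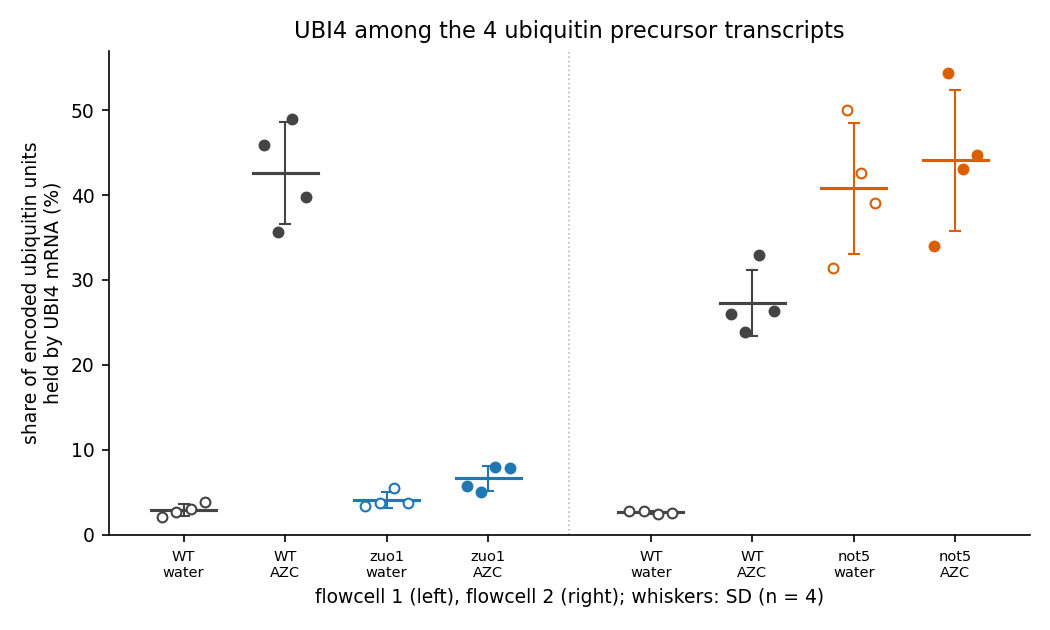
Share of encoded ubiquitin units that come from UBI4, in percent, 1 point per library with the mean ± SD of each group of 4. WT moves from under 4% with water to 23.8 to 48.9% with AZC, zuo1 stays at or below 8.03%, and both not5 groups lie between 31.4 and 54.4%.

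ROQ1 (YJL144W, chromosome X, 146359 to 146673, plus strand), whose product redirects Ubr1 to misfolded proteins, had the largest AZC ratio of the 10. It was rare in WT with water, at 1.38, 1.56, 1.13 and 2.00 CPM on flowcell 1, from 31 to 41 counts per library. With AZC it stood at 119.9, 124, 128 and 96.6 CPM, a 78.2-fold ratio (log2 6.29 ± 0.15). On flowcell 2 it went from 1.87, 2.48, 2.18 and 2.11 CPM, 109 to 146 counts, to 104, 90.8, 121 and 120.0 CPM (5.66 ± 0.38). No library with water came near any library with AZC. In zuo1 it went from 2.82, 3.46, 2.48 and 3.25 CPM to 28.9, 32.7, 26.9 and 30.1 CPM. This rise of 3.30 ± 0.13, 9.88-fold, was called (edgeR adjusted p = 4.06e-12), and left every zuo1 AZC library below every WT AZC library.

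With water, ROQ1 was 2.00-fold higher in zuo1 than in WT (log2 1.00 ± 0.17, edgeR adjusted p = 7.15e-05). In not5 with water it held 16.4, 42.8, 24.9 and 34.1 CPM, 13.7-fold above WT (3.77 ± 0.36, edgeR adjusted p = 8.63e-08), a change that may itself have counted in the choice of the gene. In not5 with AZC the libraries held 17.1, 53.6, 30.7 and 45.4 CPM, a span that covered nearly all of the water span. The AZC difference was 0.31 ± 0.30, with a 95% interval of −0.33 to 0.95 (edgeR adjusted p = 0.999). In not5 the library numbered 1 was lowest and that numbered 2 highest with water and again with AZC, for ROQ1, UBI4 and HUL5. With a term for each genotype and library number the adjusted p was 0.104 for ROQ1 and 0.53 for UBI4, so neither was called. By number, UBI4 and ROQ1 were higher and RFU1 and SAN1 lower with AZC in 4 of 4 not5 pairs.

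RFU1 (YLR073C, chromosome XII, 281019 to 281621, minus strand), the inhibitor of Doa4, moved the other way. In WT of flowcell 1 it stood at 37.0, 34.1, 37.5 and 39.8 CPM with water and at 2.27, 3.29, 3.00 and 5.42 CPM with AZC, 10.6-fold lower (log2 −3.41 ± 0.19). On flowcell 2 it went from 41.4, 39.3, 40.9 and 39.1 CPM to 7.57, 7.96, 3.43 and 6.60 CPM, 6.30-fold lower (−2.66 ± 0.23). The groups did not overlap on either flowcell. In zuo1 the values were 27.9, 23.5, 24.0 and 28.4 CPM with water and 22.9, 26.8, 19.9 and 19.7 CPM with AZC. They overlapped, and the difference of −0.22 ± 0.16 had a 95% interval of −0.56 to 0.12 (edgeR adjusted p = 0.646).

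Both mutants had less RFU1 than WT with water. The zuo1 mean was lower by −0.52 ± 0.16 on the log2 scale (edgeR adjusted p = 0.0102), a call that was lost with library totals. In not5 with water the libraries held 18.0, 11.5, 14.0 and 13.9 CPM, 2.80-fold below WT (−1.48 ± 0.22, edgeR adjusted p = 1.28e-05). With AZC not5 held 16.6, 9.28, 13.9 and 10.5 CPM, a difference of −0.19 ± 0.22 with a 95% interval of −0.66 to 0.28 (edgeR adjusted p = 0.999). All not5 libraries therefore lay below WT with water and above WT with AZC. Under AZC RFU1 was higher than in WT by 2.68 ± 0.18 in zuo1 (6.40-fold) and by 0.98 ± 0.23 in not5, or 1.51 in not5 with library totals.

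DOA4 (YDR069C, chromosome IV, 584939 to 587719, minus strand), the enzyme that Rfu1 inhibits, rose with AZC in WT. It went from 39.0, 40.7, 39.1 and 35.6 CPM to 68.9, 61.5, 73.2 and 66.0 CPM on flowcell 1 (log2 0.80 ± 0.08, edgeR adjusted p = 7.60e-08). On flowcell 2 it rose from 47.1 ± 1.22 to 67.5 ± 3.63 CPM (0.52 ± 0.08, edgeR adjusted p = 3.43e-05), again with no overlap. Its AZC difference was 0.03 in zuo1, with a 95% interval of −0.14 to 0.20, and 0.02 in not5, and neither was called. With water DOA4 was lower than WT in zuo1 (−0.28 ± 0.08, edgeR adjusted p = 0.00641) and in not5 (−0.30 ± 0.08, edgeR adjusted p = 0.00276). With library totals the first call was lost and the second value turned to 0.23. The inhibitor and the enzyme thus stood at 37.1 and 38.6 CPM in WT with water on flowcell 1 and at 3.50 and 67.4 CPM with AZC.

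Among the ligases HUL5 (YGL141W, chromosome VII, 238353 to 241085, plus strand) had the largest AZC response. In WT of flowcell 1 it rose from 53.4, 58.7, 52.5 and 54.5 CPM to 156, 149, 145 and 147 CPM, 2.73-fold (log2 1.45 ± 0.08, edgeR adjusted p = 3.49e-11). On flowcell 2 it rose from 63.8, 63.5, 61.0 and 64.7 CPM to 148, 147, 166 and 142 CPM (1.25 ± 0.09, edgeR adjusted p = 1.09e-08). Water and AZC groups were far apart on both flowcells. In zuo1 the libraries held 47.6, 50.3, 43.9 and 45.0 CPM with water and 46.6, 48.2, 51.2 and 62.8 CPM with AZC, which overlapped (0.16, 95% interval −0.01 to 0.33, edgeR adjusted p = 0.467). In not5 with water HUL5 held 91.1, 126, 102 and 106 CPM, between the WT water and WT AZC ranges. It was 1.68-fold above WT with water (0.75 ± 0.09, edgeR adjusted p = 7.25e-07), and its AZC difference in not5 was 0.03, with a 95% interval of −0.15 to 0.21.

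UBR1 (YGR184C, chromosome VII, 859901 to 865753, minus strand) and UBR2 (YLR024C, chromosome XII, 187663 to 193281, minus strand) rose with AZC in WT by smaller amounts. UBR1 went from 176, 181, 164 and 158 CPM to 327, 302, 279 and 261 CPM on flowcell 1 (log2 0.78 ± 0.07, edgeR adjusted p = 2.10e-08), and by 0.57 ± 0.08 on flowcell 2 (edgeR adjusted p = 1.71e-05). UBR2 went from 65.7, 64.6, 57.9 and 53.7 CPM to 121, 105, 104 and 109 CPM (0.86 ± 0.09, edgeR adjusted p = 1.47e-07), and by 0.68 ± 0.07 on flowcell 2 (edgeR adjusted p = 8.26e-07). For both genes every AZC library of WT lay above every water library of its flowcell. In zuo1 the AZC differences were 0.08 for UBR1, with a 95% interval of −0.07 to 0.23, and 0.12 for UBR2, with an interval of −0.06 to 0.31. In not5 they were 0.04 and 0.05, with intervals of −0.13 to 0.21 and −0.11 to 0.20. None of these 4 was called, and Ubr1's regulator ROQ1 was called in zuo1 where UBR1 was not.

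In water UBR1 was lower than WT by −0.31 ± 0.07 in zuo1 (edgeR adjusted p = 0.00124) and by −0.32 ± 0.08 in not5 (edgeR adjusted p = 0.00175). The zuo1 groups did not overlap, at 134 to 145 against 158 to 181 CPM, while not5, at 134 to 151 CPM, touched the WT range of 149 to 190.5 CPM. UBR2 was not called in zuo1 (−0.06 ± 0.09, edgeR adjusted p = 0.596) and was lower in not5 (−0.23 ± 0.07, edgeR adjusted p = 0.00846). With library totals the not5 values turned to 0.19 for UBR1 and 0.29 for UBR2, and the zuo1 call of UBR1 was lost.

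SAN1 (YDR143C, chromosome IV, 742042 to 743874, minus strand), the nuclear ligase, was the 1 ligase that fell with AZC in WT. It held 101, 94.7, 112 and 109 CPM with water and 77.6, 75.9, 98.3 and 88.6 CPM with AZC on flowcell 1 (log2 −0.29 ± 0.10, edgeR adjusted p = 0.0135), where the groups overlapped. On flowcell 2 it held 106, 105, 109 and 107 CPM against 92.6, 96.5, 92.3 and 90.2 CPM, without overlap (−0.20 ± 0.05, edgeR adjusted p = 0.00142). With water it was lower in zuo1, at 61.9, 59.2, 70.3 and 61.4 CPM, than in any WT library (−0.72 ± 0.10, edgeR adjusted p = 8.11e-06). It was also lower in not5, at 75.0 to 85.0 CPM (−0.43 ± 0.05, edgeR adjusted p = 3.96e-07), a value that turned to 0.10 with library totals. AZC differences were 0.12 in zuo1, with a 95% interval of −0.09 to 0.32, and −0.06 in not5, with an interval of −0.16 to 0.04, and were not called.

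RSP5 (YER125W, chromosome V, 410189 to 412618, plus strand) did not pass the test for AZC in either WT set. On flowcell 1 it held 202, 153, 138 and 152 CPM with water and 185, 181, 158 and 204 CPM with AZC (log2 0.18 ± 0.10, edgeR adjusted p = 0.145). The first water library stood above the other 3, and without it the difference was 0.30 (edgeR adjusted p = 0.0066). On flowcell 2 the AZC difference was −0.02 ± 0.08 (edgeR adjusted p = 0.826). With water RSP5 was lower than WT in zuo1 (−0.33 ± 0.10, edgeR adjusted p = 0.00985), a call lost with library totals. In not5 it held 114, 113, 105 and 108 CPM, below all WT water libraries at 181 to 222 CPM (−0.84 ± 0.08, edgeR adjusted p = 5.82e-08). With TMM factors that was the largest difference between not5 and WT in water among the ligases. With library totals RSP5 was still lower (−0.32), and HUL5 had the largest value (1.27).

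TOM1 (YDR457W, chromosome IV, 1369790 to 1379596, plus strand) is the longest of the 10 genes and changed least among those called in WT of flowcell 1. It held 352, 358, 311 and 273 CPM with water and 407, 397, 378 and 365 CPM with AZC (log2 0.26 ± 0.09, edgeR adjusted p = 0.0143), a call lost without the fourth water library (0.18, adjusted p = 0.0596). On flowcell 2 the difference of 0.15 ± 0.07 was not called (edgeR adjusted p = 0.0839), and DESeq2 gave an adjusted p of 0.0496. In zuo1 with water TOM1 differed from WT by −0.20 ± 0.09 (edgeR adjusted p = 0.0565), and with the replicate block the adjusted p was 0.0386. In not5 with water it was lower (−0.24 ± 0.07, edgeR adjusted p = 0.00523), which turned to 0.28 with library totals.

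**Figure D3:**
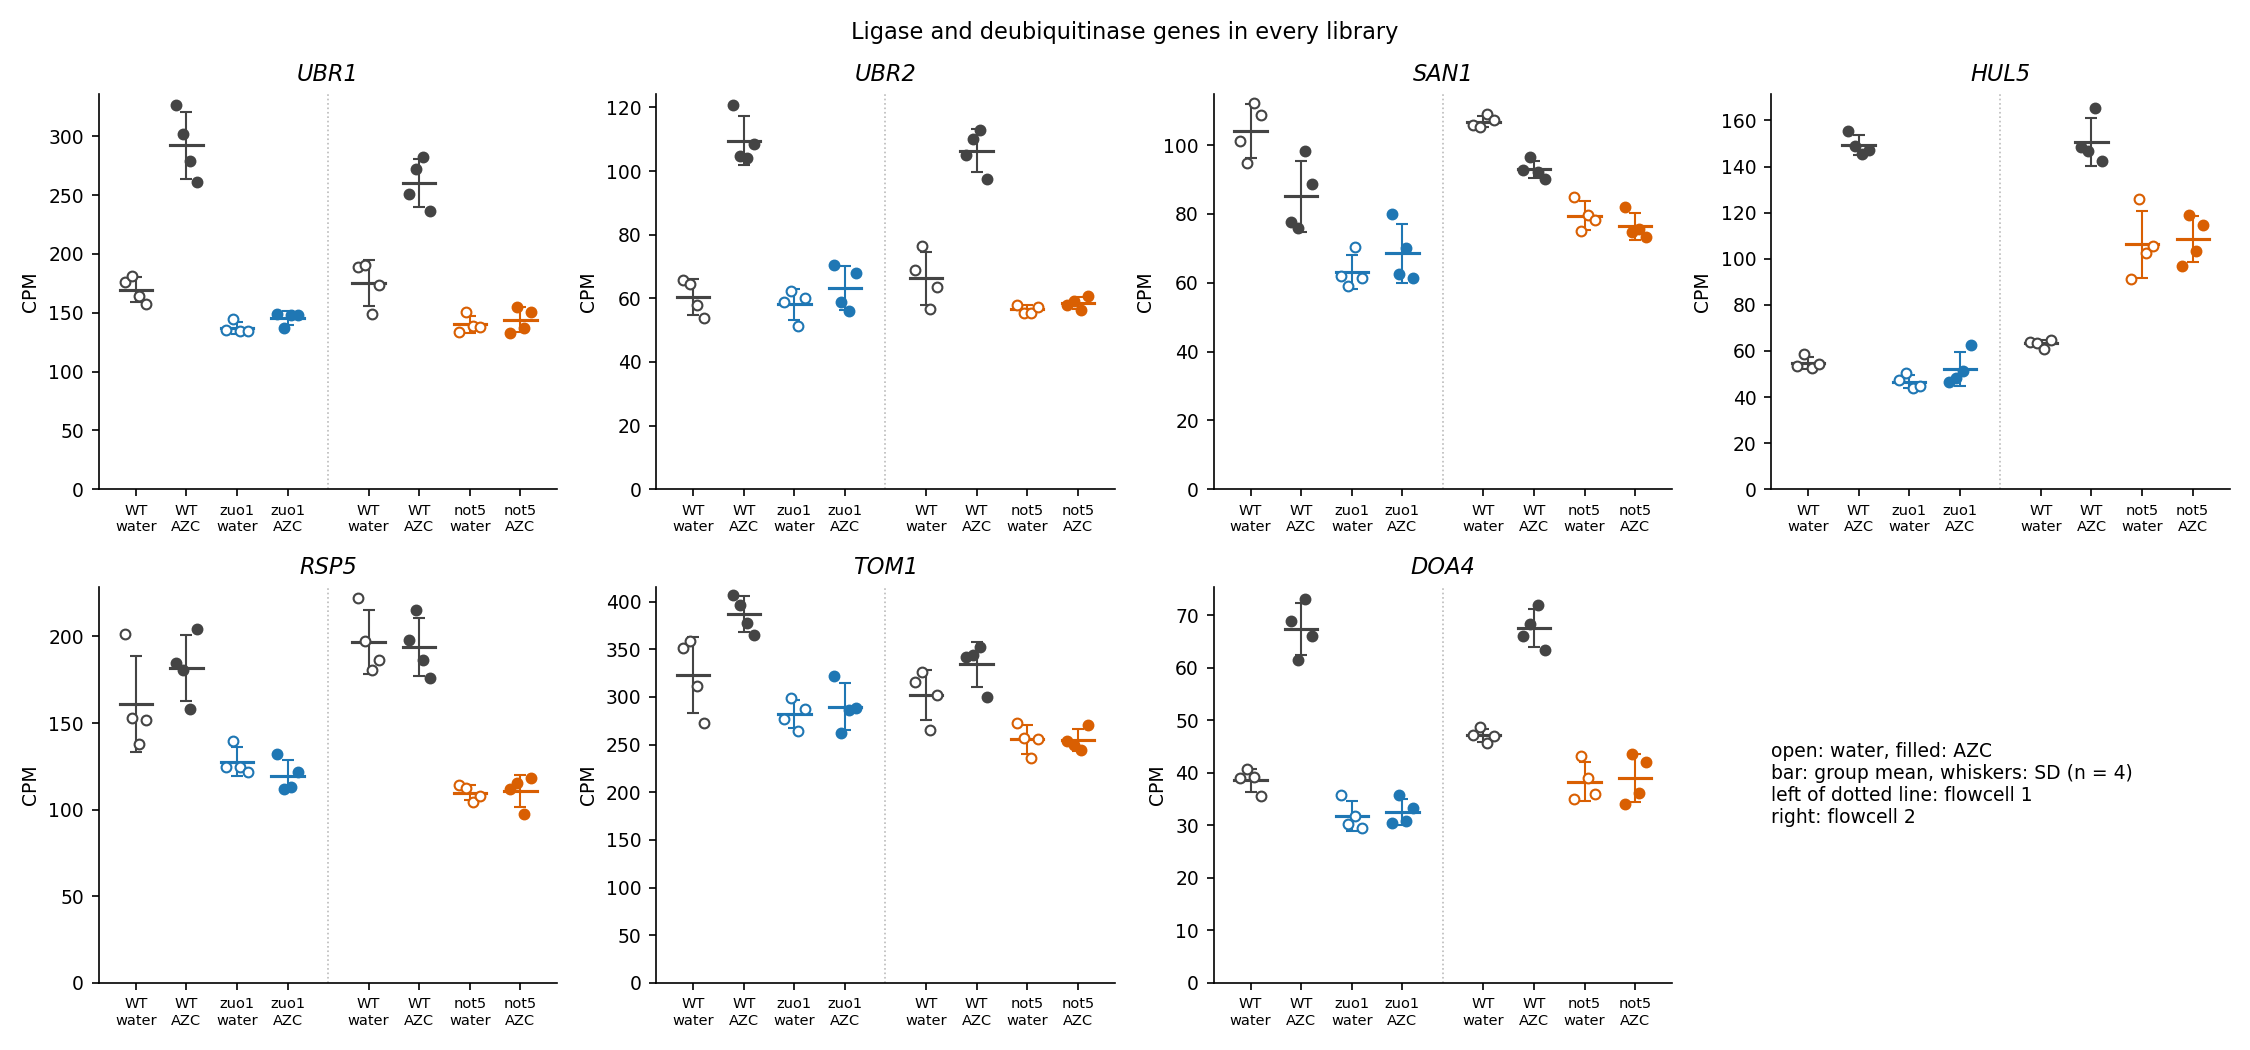
Level in CPM of the 6 ligase genes and DOA4, 1 panel each on linear axes, 1 point per library with the mean ± SD of each group of 4. HUL5, UBR1, UBR2 and DOA4 stand apart in WT with AZC, SAN1 is highest in WT with water, and RSP5 is lowest in both not5 groups.

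Counted over the 7 tested genes, AZC in WT called 6 on flowcell 1, 5 higher and 1 lower, where 64.6% of all tested genes were called, 33.3% higher and 31.4% lower. On flowcell 2 it called 5, 4 higher and 1 lower, where 65.4% of genes were called, 30.2% higher and 35.2% lower. Most genes of the table were called in both sets, so the counts alone do not set these 7 apart. In zuo1, where 2.77% of tested genes were called, 2.25% higher and 0.519% lower, AZC called 2 of the 10, ROQ1 and UBI4, both higher. Both were chosen in part for large changes, so this count is a description and cannot be read against the share of all genes. The counts over all 10 that follow hold the chosen genes too, and are likewise a description. In not5 AZC called 0 of the 10 by edgeR, where 0% of genes were called, 62 genes and 0 of the 10 had an unadjusted p under 0.05, and DESeq2 called 1 gene, none of the 10. That fit has no term for library number, although the not5 libraries vary together by number. With a term for each genotype and number edgeR called 76 genes, 75 higher and 1 lower, and again 0 of the 10. With water zuo1 differed from WT at 8 of the 10, 2 higher and 6 lower, where 59.3% of genes were called, 30.1% higher and 29.2% lower. With library totals it differed at 3, where 2893 of 5783 tested genes were higher and 789 lower. With water not5 differed from WT at all 10, 3 higher and 7 lower, where 82.1% of genes were called, 41.2% higher and 40.9% lower. A share of 10 of 10 is close to such a background. With library totals 8 of the 10 were called, 6 higher and 2 lower, where 3656 of 5850 tested genes were higher and 1142 lower. UBR2 (0.29, edgeR adjusted p = 0.0152), DOA4 (0.23, 0.0373) and TOM1 (0.28, 0.0132) were then called higher, and UBR1 and SAN1 were not called. The direction of these 5 genes in not5 so depends on the scaling.

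The scaling bears on the mutant comparisons. With library totals the median log2 difference of all genes moved from 0.01 to 0.25 for zuo1 against WT in water and from 0.00 to 0.53 for not5 against WT in water, and the values of the 10 genes moved with it. In those comparisons the higher values of UBI4 and ROQ1 in both mutants and of HUL5 in not5 had the same direction under both scalings. So did the lower values of RFU1 and RSP5 in both mutants and of SAN1, UBR1 and DOA4 in zuo1. Of the lower values in zuo1 only that of SAN1 was still called with library totals (−0.48, edgeR adjusted p = 0.000322). RFU1 (−0.27), RSP5 (−0.09), UBR1 (−0.06) and DOA4 (−0.03) lost their calls there. UBR2 and TOM1 in zuo1, not called with TMM factors, turned to 0.19 and 0.05. HUL5 in zuo1 (−0.23 ± 0.08, edgeR adjusted p = 0.0224) turned to 0.01 with library totals, and its call was lost without WT water library 2 (adjusted p = 0.0697) or zuo1 water library 4 (0.0572).

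**Figure D4:**
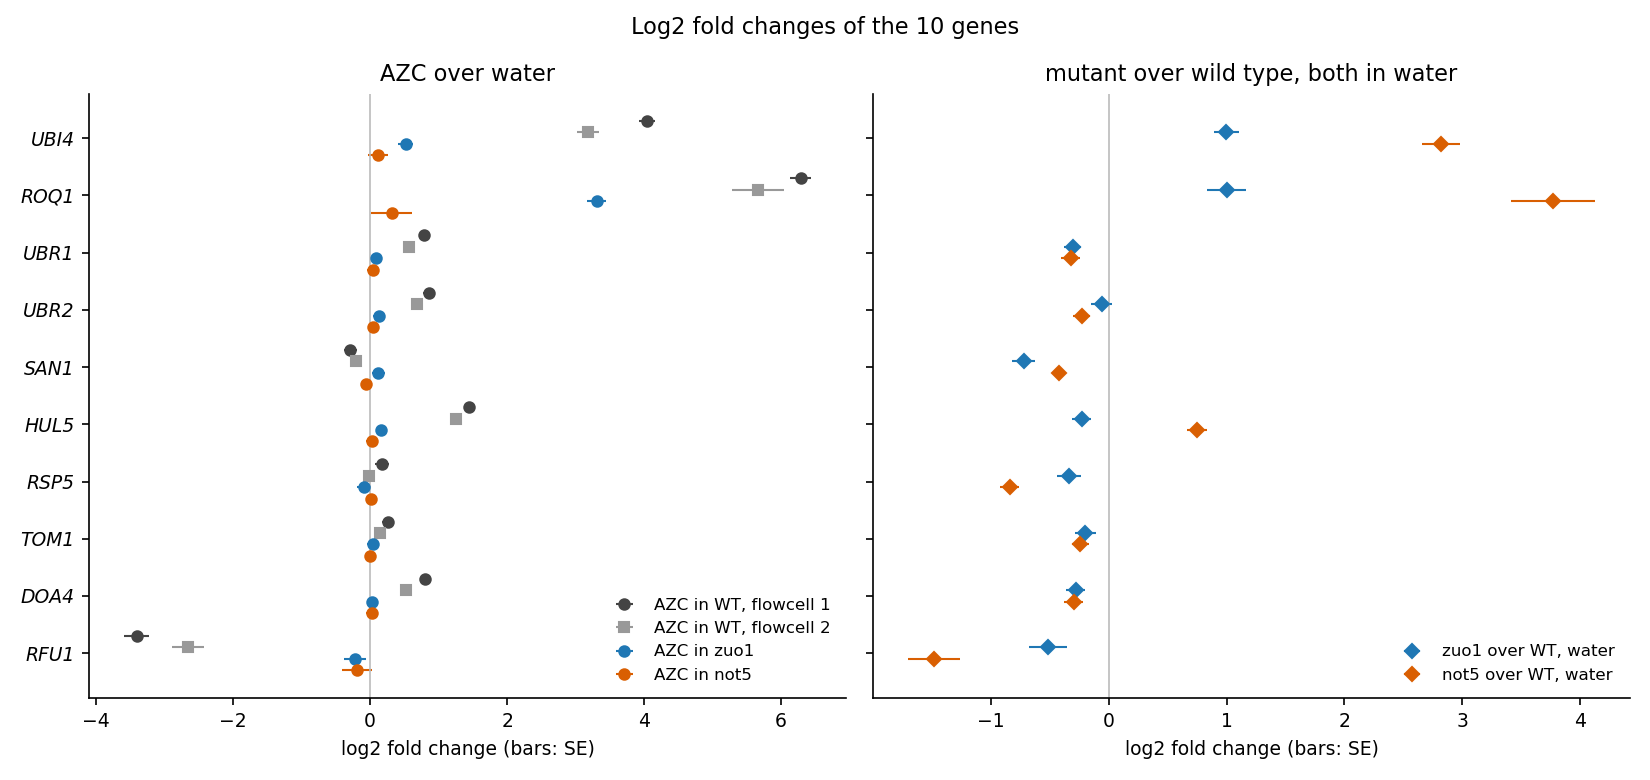
Log2 differences with SE for the 10 genes, on the left AZC over water in WT of flowcell 1, WT of flowcell 2, zuo1 and not5, on the right mutant over WT in water. ROQ1 and UBI4 lie far right and RFU1 far left of 0 in both WT sets, while not5 sits near 0 on the left panel. The right-panel values of UBR1, UBR2, SAN1, DOA4 and TOM1 in not5 and of HUL5, UBR2 and TOM1 in zuo1 turn positive with library totals.

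Under AZC both mutants had less mRNA of the ligases and of DOA4 than WT with TMM factors, which in not5 held for 4 of the 7 genes with library totals. All 7 tested genes were lower in zuo1, where 69.3% of all genes were called, 34% higher and 35.3% lower. The values ran from HUL5 (−1.52 ± 0.08, edgeR adjusted p = 2.90e-11), DOA4 (−1.05 ± 0.08) and UBR1 (−1.01 ± 0.07) to SAN1 (−0.31 ± 0.10, edgeR adjusted p = 0.00878), whose call was lost with library totals or without zuo1 AZC library 2 or 4. All 7 were also lower in not5, where 79.4% of genes were called, 40.7% higher and 38.7% lower. UBR1 and UBR2 had the largest values there (−0.86 each), followed by RSP5 (−0.81) and DOA4 (−0.79), and all of these passed the edgeR test. With library totals the median of all genes in not5 moved from 0.02 to 0.55, and the lower values of HUL5 and TOM1 turned to 0.06 and 0.13, not called. SAN1 was then called higher (0.25, adjusted p = 0.00794), while UBR1 (−0.33), UBR2 (−0.33), RSP5 (−0.28) and DOA4 (−0.27) were still called lower, by less. At that scaling 3777 of 5850 tested genes were called higher in not5 and 929 lower.

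The AZC response itself differed between genotypes. In zuo1 minus WT, with 50.1% of all genes called, 23.4% higher and 26.7% lower, 5 of the 7 were called. The response was smaller for HUL5 (−1.29 ± 0.12, edgeR adjusted p = 4.73e-08), DOA4 (−0.77 ± 0.11), UBR2 (−0.73 ± 0.13) and UBR1 (−0.70 ± 0.10), and for SAN1 the fall seen in WT was not matched (0.41 ± 0.14, edgeR adjusted p = 0.0192). In not5 minus WT, with 49.2% of genes called, 26.6% higher and 22.7% lower, 4 of the 7 were called, HUL5 (−1.22 ± 0.12, edgeR adjusted p = 1.64e-06), UBR2 (−0.63 ± 0.10), UBR1 (−0.53 ± 0.12) and DOA4 (−0.50 ± 0.11). TOM1 and RSP5 were called in neither, with adjusted p from 0.138 to 0.835. For the genes given as a description, the response of UBI4 was smaller by −3.52 in zuo1 and −3.07 in not5, that of ROQ1 by −2.98 and −5.35, and the drop of RFU1 by 3.19 and 2.47. Water libraries enter both the response and the comparison of mutant with WT in water, so these values are not independent.

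Per kilobase of coding sequence the order of levels shifted with AZC. In WT with water on flowcell 1 it ran UBI4 (71.9 ± 11.7 CPM per kb), RSP5 (66.3 ± 11.5), RFU1 (61.5 ± 3.84), SAN1 (56.8 ± 4.29), TOM1 (33.0 ± 4.06), UBR1 (29.0 ± 1.84), HUL5 (20.0 ± 1.01), DOA4 (13.9 ± 0.778), UBR2 (10.8 ± 1.01) and ROQ1 (4.81 ± 1.16). Neighbours among the first 4, and TOM1 and UBR1, lay within the sum of their SDs. With AZC the order began with UBI4 (1181 ± 82.9 CPM per kb), ROQ1 (372 ± 45.1) and RSP5 (74.8 ± 7.80) and ended with RFU1 (5.80 ± 2.24). ROQ1 thus went from last to second place per length and RFU1 from near the top to last. In not5 with water the order began in the same way, with UBI4 (745 ± 140 CPM per kb), ROQ1 (93.8 ± 36.2) and RSP5 (45.2 ± 1.81). In zuo1 with water ROQ1 was still last (9.54 ± 1.39), and with AZC it was second (94.1 ± 7.68), below UBI4 (205 ± 22.5).

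Genes with the most similar pattern were found by Pearson correlation over the 8 group means of log2 CPM, centred by flowcell, among 5711 other protein-coding genes. With 8 points and large differences in WT under AZC, high values are common, and they are a description. For UBI4 they were YGR130C (r = 0.998), MYO3, a type I myosin (0.993), and TRE2, an adaptor of Rsp5 (0.992). For ROQ1 they were MTQ1, a methyltransferase (0.997), YOR268C (0.995) and EDC2, an activator of mRNA decapping (0.994). For RFU1 they were DBP7 (0.999) and RSA4 (0.998), which act in assembly of the large ribosomal subunit, and the nuclear pore gene NUP133 (0.999). The likeness is in shape, not size: the WT log2 difference on flowcell 1 was 1.40 for YGR130C and 4.04 for UBI4, 4.92 for YOR268C and 6.29 for ROQ1, and −2.37 for DBP7 and −3.41 for RFU1.

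The wider pathway was read from 7 lists of other genes. Some listed genes encode partners or subunits of the enzymes that name their list, such as CUE1 among the E2 genes and HRD3 among the ligases. In WT of flowcell 1 AZC called 11 of 14 E1 and E2 genes higher and 1 lower, with a median log2 difference of 0.72, against 0.02 over all tested genes, of which 33.3% were called higher and 31.4% lower. UBC4 (2.06 ± 0.11) and UBC5 (1.70 ± 0.11), stress-related E2 enzymes for short-lived and abnormal proteins, led them, and UBC11 fell (−1.35 ± 0.29). Of 11 genes for Cdc48 partners and proteasome shuttles 10 were higher and 1 lower (median 0.87), such as DDI1 (1.83 ± 0.08), a shuttle protein and protease, and the Cdc48 cofactors NPL4 (1.54 ± 0.06) and UFD1 (1.48 ± 0.07). Of 16 other ligases of protein quality control 11 were higher and 1 lower (median 0.60), among them ASI3 of the inner nuclear membrane (2.16 ± 0.19), HUL4 (1.47 ± 0.10) and PIB1 of endosomes (1.35 ± 0.09). The size of the ASI3 change did not repeat in WT of flowcell 2, where it was 0.83 ± 0.07, below HUL4 (1.17 ± 0.11) and PIB1 (0.92 ± 0.09).

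Of 17 Rsp5 adaptors, which bring the ligase to its targets, 14 were higher and 1 lower in WT of flowcell 1 (median 0.42), beside 33.3% and 31.4% of all genes, while RSP5 itself was not called. ECM21 (1.80 ± 0.08), SSH4 (1.36 ± 0.11) and ROD1 (0.95 ± 0.08) were the members with the largest changes. Of 22 deubiquitinase genes and regulators 13 were higher and 5 lower (median 0.36), with OTU1 (1.30 ± 0.07) and the proteasome-bound UBP6 (1.23 ± 0.08) higher and OTU2 (−1.23 ± 0.10) lower. Among 8 partners of Ubr1, Ubr2 and Roq1 there were 4 higher and 2 lower (median 0.21). RPN4, the proteasome gene activator that Ubr2 marks, rose by 2.05 ± 0.11 and MUB1, the partner of Ubr2, by 0.86 ± 0.09, while CUP9, a repressor that Ubr1 marks, fell (−0.46 ± 0.09). All 3 fusion genes for ubiquitin were lower (median −0.58).

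The WT set of flowcell 2 gave like counts. Higher and lower were 10 and 2 of the E1 and E2 genes, 10 and 1 of the Cdc48 and shuttle genes, 14 and 1 of the quality control ligases, 10 and 2 of the Rsp5 adaptors, 12 and 5 of the deubiquitinase genes, 5 and 1 of the Ubr1 and Ubr2 partners and 0 and 3 of the fusion genes. The medians ran from −0.62 for the fusion genes to 0.77 for the Cdc48 and shuttle genes, against −0.03 over all tested genes. Those counts stand beside 30.2% of all genes called higher and 35.2% lower.

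In zuo1 AZC called 9 listed genes higher and 0 lower, beside 2.25% and 0.519% of all genes, and the list medians ran from −0.31 to 0.23 against −0.02 over all genes. UBC4 rose by 1.11 ± 0.11 (edgeR adjusted p = 9.53e-07) and RPN4 by 1.05 ± 0.11, and smaller calls included PIB1 (0.44 ± 0.09), NPL4 (0.42 ± 0.06), DDI1 (0.35 ± 0.08), UFD1 (0.29 ± 0.07) and OTU1 (0.28 ± 0.07). UBC5 was not called (0.37 ± 0.11), nor was any Rsp5 adaptor. With library totals fewer passed, 2 of the 3 E1 and E2 genes, 1 of the 3 Cdc48 and shuttle genes and 0 deubiquitinase genes. At that scaling 98 of 5783 tested genes were called higher and 42 lower. By interaction the log2 response was lower in zuo1 than in WT for 11 of the 14 E1 and E2 genes, 11 of the 16 ligases, 12 of the 17 adaptors and 8 of the 11 Cdc48 and shuttle genes, beside 26.7% of all genes. In not5 AZC called no gene of any list in the main fit, which has no term for library number. The log2 response was lower there than in WT for 10 of the E1 and E2 genes, 12 of the ligases, 8 of the adaptors and 10 of the Cdc48 and shuttle genes, beside 22.7% of all genes.

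With water not5 differed from WT at genes of every list, though not with the same balance. The Rsp5 adaptors were 12 higher and 3 lower (median 0.69), the quality control ligases 10 and 4 (0.59), the Cdc48 and shuttle genes 7 and 2 (0.30) and the E1 and E2 genes 7 and 5 (0.18), against a median of 0.00 over all genes, of which 41.2% were higher and 40.9% lower. UBC5 was higher by 2.97 ± 0.11, RPN4 by 1.77 ± 0.09, SSH4 by 1.51 ± 0.09, DDI1 by 1.51 ± 0.07 and UFD1 by 1.49 ± 0.06, while UBC4 differed by 0.29 ± 0.09. The fusion genes were all lower (median −1.64). Higher and lower calls were closer to even for the deubiquitinase genes, 9 and 7 (median 0.12, 16 and 3 with library totals). For the Ubr1 and Ubr2 partners they were 2 and 2 (median −0.01, 7 and 1 with library totals). Under library totals the medians were higher by the shift of all genes, 1.21 for the adaptors (16 higher, 0 lower), 1.11 for the ligases (12 and 0), 0.83 for the Cdc48 and shuttle genes (9 and 1) and 0.71 for the E1 and E2 genes (9 and 2), and that of the fusion genes was still below 0, at −1.11. These not5 counts with library totals stand beside 3656 of 5850 tested genes called higher and 1142 lower. With water zuo1 had 9 of the 11 Cdc48 and shuttle genes lower and 0 higher (median −0.39), such as NPL4 (−0.39 ± 0.06), and 12 of the 22 deubiquitinase genes lower and 4 higher (median −0.21), beside 29.2% of all genes lower and 30.1% higher. Under library totals these became 5 lower and 0 higher (median −0.15) and 3 lower and 8 higher (0.04). The balance also turned for the quality control ligases, from 4 higher and 6 lower to 7 and 4, and for the Ubr1 and Ubr2 partners, from 2 and 3 to 5 and 1. These zuo1 counts with library totals stand beside 2893 of 5783 tested genes called higher and 789 lower. CUP9 was lower in zuo1 by −1.06 ± 0.09 and RPS31 higher by 0.78 ± 0.20.

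**Figure D5:**
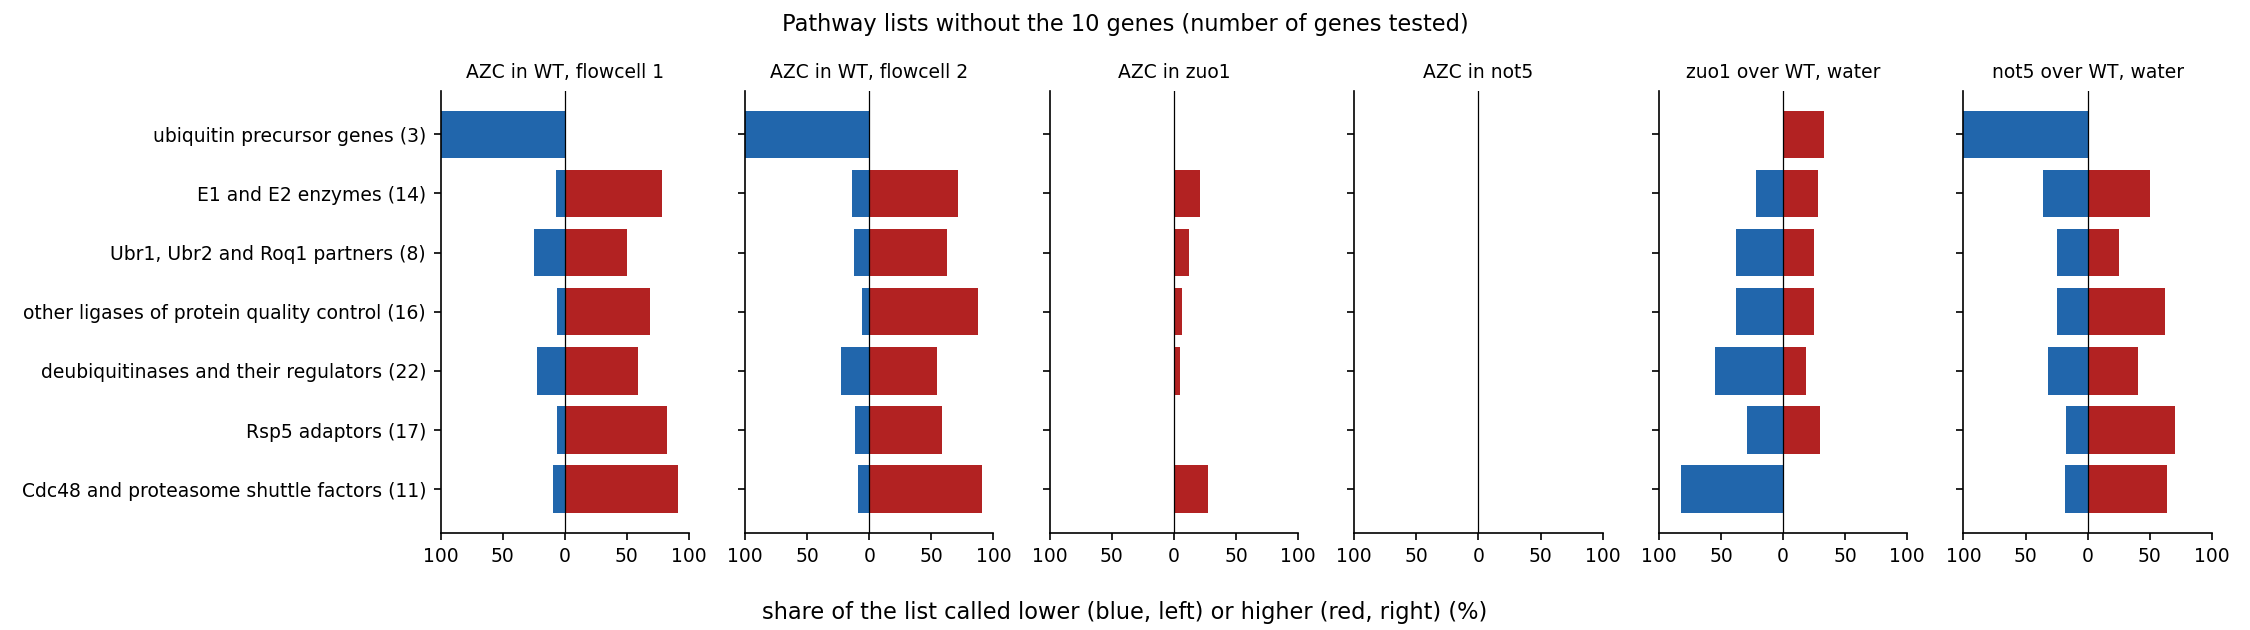
Share of each pathway list called by edgeR, in percent, lower in blue and higher in red, in 6 comparisons, with the number of genes tested per list in parentheses. Higher calls outnumber lower ones under AZC in both WT sets except among the 3 fusion genes, few genes are called for AZC in zuo1, and none for AZC in not5. In zuo1 over WT the deubiquitinase, quality control ligase and Ubr1 and Ubr2 partner lists turn, with library totals, to more higher than lower calls. Over all tested genes 2893 are then called higher and 789 lower.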

How the data were processed

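The values are expected counts, that is estimated counts of reads for each gene, which the authors deposited as 1 table. The submitters' processing notes name Salmon 1.10.2, FastQC 0.12.1 and the R64 build. The labels' protocols describe oligo-dT selection and a kit that does not mark strand. The tests used whole numbers, so the 79.1% of deposited values with a fraction were rounded. The 6085 records were matched to RefSeq R64 genes, 1 of them only without its version, and 5962 were protein coding. The 10 genes overlap no other annotated gene.

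Counts were fitted in R 4.3.3 with edgeR 4.0.16 (robust quasi-likelihood F test, TMM factors, filterByExpr by group), separately for the 16 libraries of each flowcell, with 1 term for group and adjustment over all tested genes. Mutants were compared with WT of their own flowcell. The fit was tested on simulated counts. DESeq2 1.42.0, library totals, no filter, replicate blocks and single left-out libraries were alternatives. Ubiquitin unit shares were tested with scipy 1.17.1. Depth limits precision most for ROQ1 with water (31 counts at least), and intervals cover the spread between libraries.

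Members and lists were chosen with earlier results of these data known. All 10 members are named, and of each list the 3 or fewer genes with the largest mean AZC change in WT among those called alike on both flowcells. Of 92 list genes 1 matched no gene of the table, and UBI4, as a member, was left out of its list. UFD4 was in a pair of lists. Library numbers pair where every correlation of same-numbered deviations passes 0.1: not5 with water and AZC (0.778, 0.807, 0.164 and 0.658) and WT and zuo1 with water (0.152, 0.202, 0.315 and 0.19). The labels do not say what a shared number marks. No other pair of groups that a test set against each other met this. WT with AZC and zuo1 with water, which no test compared directly, also passed 0.1 (0.281, 0.336, 0.326 and 0.171).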

Additional observations from a re-analysis of the deposited data

Results flagged for a closer look

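In 4 of 80 gene and group sets of 4 libraries, 1 library stood apart by Dixon's rule, whose gap to the next exceeded the 95% critical value, where chance gives about 1 in 20. UBI4 was at 102 CPM in WT water library 4 of flowcell 1, against 73.7 to 77.5 CPM in the others. UBR1 was at 145 CPM in zuo1 water library 2, against 134 to 135, and at 137 CPM in zuo1 AZC library 2, against 148 to 149. RSP5 was at 139.8 CPM in zuo1 water library 2, against 122 to 125.

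The AZC response differed between zuo1 and WT, by interaction in edgeR, for UBR1 (−0.70), UBR2 (−0.73), DOA4 (−0.77), HUL5 (−1.29) and SAN1 (0.41). Between not5 and WT it differed for UBR1 (−0.53), UBR2 (−0.63), DOA4 (−0.50) and HUL5 (−1.22).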

How the results depend on the processing

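Counts of member genes called kept within 1.5 times under DESeq2, no filter and both replicate blocks. With library totals the count for zuo1 against WT in water was 3 in place of 8, while that of all tested genes was 3682 in place of 3428. Of 100 member values 14 changed sign with library totals. Those called with either scaling, or without a test, were HUL5 in zuo1 against WT in water (0.014), UBR1 (0.19), UBR2 (0.29), SAN1 (0.10), DOA4 (0.23) and TOM1 (0.28) in not5 against WT in water, and UBI4 (0.29), SAN1 (0.25), HUL5 (0.055) and TOM1 (0.13) in not5 against WT under AZC. All of these except UBI4 were called lower with TMM, and all lie below the median of all genes under library totals. The other 4 were not called with either scaling: UBR2 (0.19) and TOM1 (0.05) in zuo1 against WT in water and DOA4 (−0.01) and TOM1 (−0.002) for AZC in zuo1.

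Leaving out single libraries gave member counts of 5 to 7 for AZC in WT of flowcell 1, 5 to 6 on flowcell 2, 2 in zuo1, 0 in not5, 7 to 9 for zuo1 and 10 for not5 against WT in water, 6 to 7 and 7 under AZC, and 5 to 6 and 4 to 5 for the differences of response. In the same order, the counts of all tested genes were 3515 to 3801, 3564 to 3871, 107 to 216 and 0 for AZC. They were 3087 to 3509 and 4671 to 4838 in water, and 3794 to 4012 and 4490 to 4684 under AZC. For the differences of response they were 2656 to 2910 and 2547 to 3071. Of 1600 such member values 5 lost and 10 gained a call, and 19 changed sign, none of them called, all with a value of at most 0.04 from 0 before. RSP5 in zuo1 minus WT was called without WT water library 1 (−0.39, adjusted p = 0.0116), TOM1 in zuo1 against WT in water without WT water library 4 (adjusted p = 0.0085), and SAN1 in not5 minus WT without not5 water library 1 (0.18, adjusted p = 0.0314).

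With the replicate block TOM1 in zuo1 against WT in water was called (−0.19, adjusted p = 0.0386), where the numbers pair, and no other member call changed. Taken as pairs, the UBI4 share of ubiquitin units gave an exact p of 0.25 for zuo1 against WT in water and 0.125, the smallest possible, for AZC in not5. With a term per genotype and number, TOM1 for AZC in WT of flowcell 2 (adjusted p = 0.0405) and SAN1 in not5 minus WT (0.15, adjusted p = 0.0222) were called. Over all genes AZC in zuo1 called 160, 280 with the replicate block, 307 with a term per genotype and number, and 107 to 216 with single libraries left out. AZC in not5 called 0, 1 by DESeq2 and 76 with a term per genotype and number. The numbers did not meet the pairing rule for AZC in zuo1, with correlations of 0.0242 to 0.387. Depth is lower on flowcell 1, and the cause of each changed call was not tested.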
